A study of Chrysanthemum x morifolium with 6 samples.

Results

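Among 365669 assembled transcript features of the chrysanthemum leaf, 263 (0.0719%) were well expressed in unstressed plants and stood far lower after cold. A feature here is 1 named entry of an expression table, such as Cluster-2961.145452. The level is the FPKM, fragments counted per length of the feature and scaled to the mapped fragments of the library, so that levels are per length and can be set side by side between features. The 263 lowered features were chosen by 3 conditions on the group means: a control mean of at least 100 and below 1000 FPKM, a cold mean above 0, and a ratio (cold mean + 1)/(control mean + 1) of at most 0.25. The 3109 features that met the control condition alone are called the same control level class below, and 8.46% of them were lowered features. Because measured cold and control values chose these features, their difference between the groups is a description and not a test.

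The plants were Chrysanthemum x morifolium, cultivar Jinba, raised from tissue culture for 30 days under a 16 h photoperiod at 25 °C by day and 22 °C by night, potted, and left to settle for 5 days. Leaves at 1 month of age were taken from control plants kept under normal conditions (3 libraries) and from cold plants given 4 °C for 24 h and then -4 °C for 4 h (3 libraries). The design compares these conditions, and the chilling and the subzero step cannot be told apart in it. The protocols speak of leaves mixed within each treatment and of 2 sequenced samples, so the 3 libraries of a group may share their plant material, and the spread between them may be technical.

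Leaves that meet chilling temperatures rearrange a large part of their transcripts. In Arabidopsis, CBF transcription factors switch on protective cold-regulated genes within hours, while many genes of growth and of photosynthetic light capture are turned down. A transcript level drops when existing copies are broken down faster than new ones are made. Gene names, sequences and genome positions are not paired with the features in the file, and no table of names was used here. The roles of the lowered features, and the leaf's own marker genes, could therefore not be read, and the features are described by level, spread and numbering.

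The control libraries had FPKM totals of 2615325 to 2648484 and the cold libraries of 2577065 to 2589509. Absolute depth is unknown. The steps between low values gave relative depths of 0.74 (control 2) to 0.96 (cold 3) when control 1 was set to 1, estimated from the commonest ratio among features seen in only 2 libraries. That ratio was held by 141 of 2413 features for control 2 and by 139 of 1257 for cold 3, so these depths are rough. Read sharing between near-identical copies, which a polyploid such as chrysanthemum has, makes each single-feature value uncertain. In bulk leaf RNA, fewer cells of a type and less RNA per cell cannot be told apart.

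The lowered features together went from a visible to a small part of the leaf's transcripts. They took 2.39%, 2.39% and 2.44% of the FPKM total in control 1 to 3. In cold 1 to 3 they took 0.321%, 0.323% and 0.322%. The mean share was 2.40% ± 0.0275 over control libraries and 0.322% ± 0.000965 over cold libraries (SD, 3 libraries each), and the libraries within a group lay very close to each other. The median lowered feature had 174, 175 and 181 FPKM in control 1 to 3 and 24.2, 23.7 and 24.5 FPKM in cold 1 to 3. No single library carried the low cold level: each cold library held the lowest of the 3 cold values for 84 to 93 of the 263 features.

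**Figure D1:**
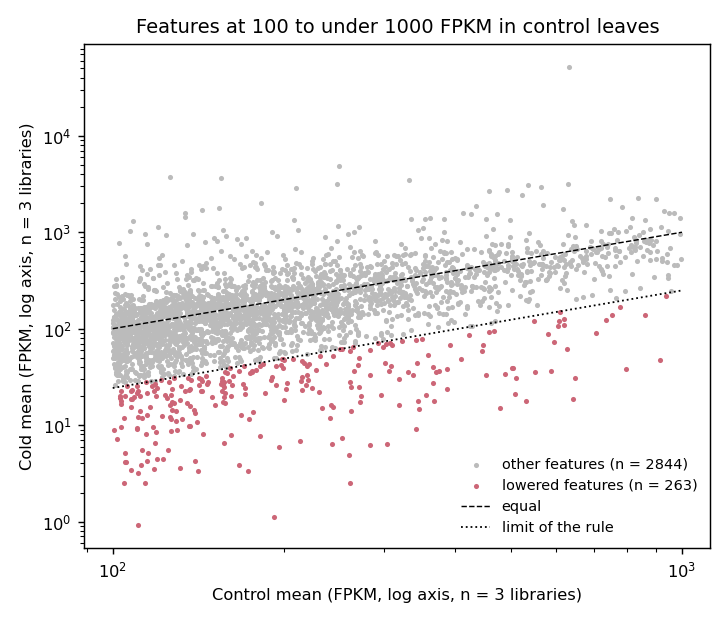
Cold mean against control mean (FPKM, both axes log, 3 libraries a group) for features of the same control level class, with the 263 lowered features in red, the line of equal levels dashed and the limit of the rule dotted. The lowered features reach down from the dotted line to a cold mean of 0.917 FPKM, and 2 features of the class listed at 0 in all cold libraries are not drawn.

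Most lowered features remained measurable after cold. Their control means ran from 100.4 to 936 FPKM with a median of 174, and their cold means from 0.917 to 216 FPKM with a median of 23.8. A cold mean of 10 FPKM or more was left in 215 of the 263 (81.7%), and of 100 FPKM or more in 11. The median feature was 7.54-fold lower in cold, with quartiles of 5.12-fold and 14.0-fold. At least 8-fold lower were 124 features, at least 16-fold lower 53, at least 32-fold lower 20 and at least 64-fold lower 3. The size of the difference did not follow the control level in a simple order, since the median was 6.99-fold at 100 to 200 FPKM in control (153 features), 8.48-fold at 200 to 400 FPKM (75) and 7.90-fold at 400 to 1000 FPKM (35). The lowered features made up 8.27%, 8.61% and 9.04% of the class in these 3 ranges.

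In rank, most of these features stood far lower after cold, a shift that the limits of the rule favour by themselves. The 11 with a cold mean of 100 FPKM or more stayed among the higher ranks. The median rank of the 263 lowered features among all features was 1717 by control mean and 14825 by cold mean. The highest of them ranked 182 in control leaves. The best cold rank of any of them was 1449.

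The lowered feature with the highest control mean was Cluster-2961.145452. It had 973, 880.3 and 955 FPKM in control 1 to 3 and 200.01, 205 and 243 FPKM in cold 1 to 3. All cold libraries lay far below all control libraries, and the feature kept the highest cold mean of the 263 as well. Its means were 936 ± 49.0 and 216 ± 23.3 FPKM (SD, n = 3 each), 4.33-fold lower in cold, and its difference on the log2(FPKM + 1) scale was -2.11 ± 0.083 (SE, limma).

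The 3 features that follow it in control level did not all reach a similar cold level. The second went from 914 ± 43.1 to 47.6 ± 0.731 FPKM (SD, n = 3 each), which is 19.2-fold lower. The third went from 860.01 ± 28.5 to 138 ± 11.7 FPKM, 6.25-fold lower. The fourth went from 797 ± 39.1 to 38.6 ± 1.495 FPKM, 20.7-fold lower. The third thus stood well above the second and the fourth after cold, by more than the spread between libraries. The second and the fourth lay much closer to each other.

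Cluster-2961.154908 had the lowest ratio of the 263. It had 197, 183 and 196 FPKM in control 1 to 3, was listed at 0 in cold 1 and 2, and had 3.35 FPKM in cold 3. Its place among the lowered features rests on cold 3 alone, without which its cold mean would be 0. The feature with the second lowest ratio had values in all cold libraries, 271, 247 and 266 FPKM in control and 1.92, 3.73 and 1.88 FPKM in cold, and was 104-fold lower. The third had 105, 122 and 105 FPKM in control and 0.79, 0.97 and 0.99 FPKM in cold, the lowest cold mean of all, and was 121-fold lower. In both, the cold libraries lay within a few FPKM of each other and nowhere near the control range.

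**Figure D2:**
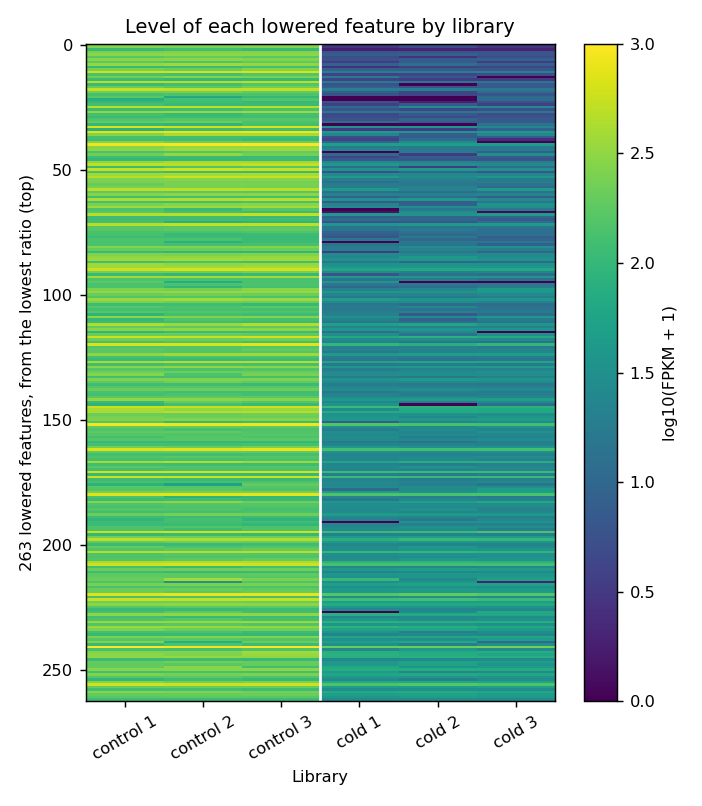
Level of the 263 lowered features (rows, from the lowest ratio at the top) in each of the 6 libraries (columns), as log10(FPKM + 1) from 0 to 3. The 3 control columns look alike and so do the 3 cold columns, and dark cells in the cold columns are values at or near 0, including the 15 features listed at 0 in at least 1 cold library.

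Values just inside and just outside the rule differed little. The lowered feature with the largest ratio, 0.249, had 114 FPKM in control and 27.7 FPKM in cold on average, and the closest feature outside had a ratio of 0.2501 with 119 and 28.9 FPKM. At the lower control limit, the last feature inside had a control mean of 100.4 FPKM and a cold mean of 8.84 FPKM, and the first outside 99.9 and 5.29 FPKM. Above the upper limit, 17 of the 167 features at 1000 FPKM or more in control also met the ratio, the lowest of them with 1015 FPKM in control and 29.5 FPKM in cold. Another 359 features met the ratio at 50 to under 100 FPKM in control. The 2 features of the class that were listed at 0 in all cold libraries had control means of 172 and 261 FPKM.

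The groups of libraries did not overlap for 262 of the 263 lowered features. All 3 cold libraries lay below all 3 control libraries in 28.2% of the 153984 tested features (mean of at least 1 FPKM over the 6 libraries, which all 263 passed) and in 55.1% of the same control level class. By limma, with an adjusted p under 0.05 over all tested features, 258 of the 263 counted as lower, beside 19.8% of all tested features and 51.1% of the class. Nothing is read from either count, since the rule used this contrast. The class was set by the control level alone, a choice that by itself favours features that are lower in cold.

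A few features entered on uneven libraries. The feature with overlapping groups had 140, 31.9 and 151 FPKM in control and 28.2, 37.8 and 0.99 FPKM in cold, so that control 2 and cold 3 decided its means. It is 1 of the 5 that did not pass limma's test, and each of those 5 had a cold library at least 4 times as high as another. Such a cold range (0 included as the lowest) was found in 25 of the 263 (9.51%). In 10 features 1 cold library was listed at 0 and in 5 features 2 were, with control means of 105 to 253 FPKM and cold values of up to 65.4 FPKM in these 15. None of the 263 was listed at 0 in a control library.

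Spread between control libraries was not used by the rule, and the lowered features resembled their class in its median. Over the control libraries their coefficient of variation had a median of 5.35%, against 5.41% for the other 2846 features of the class. Its upper quartile was 10.5% against 9.31%, and 3 of 263 (1.14%) against 6 of 2846 (0.211%) had 50% or more. Over the cold libraries the median was 13.6%, against 4.51% for the others. At matched cold levels the spread was similar: for the 131 lowered features with cold means in their own interquartile range, 14.2 to 37.4 FPKM, the median was 11.1%, and for the 13491 other features in that cold range it was 10.9%. No test was made of these differences.

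Each library was also read against a choice made without it, as a description. When the rule was applied to the 5 other libraries, it chose 260 to 270 features. The ratio in the library left out, set against the mean of the other condition, was also at most 0.25 for 89.7% (cold 1) to 93.7% (control 3) of them. The median ratio in the left-out library was 0.134 to 0.142. At most 5 of the chosen features had a ratio above 0.5 there, and the highest ratio was 10.9 (control 2). The other condition's libraries served both the choice and the reading. Libraries of a group may also share plant material, so closeness in the left-out library is no independent support.

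The reverse pattern was more frequent. With the same limits turned around (cold mean of at least 100 and below 1000 FPKM, control mean above 0, inverse ratio of at most 0.25), 502 features met the rule, which is 15.2% of the 3301 in that cold range. They took 0.561% ± 0.00317 of the FPKM total over control libraries and 5.28% ± 0.0426 over cold libraries (SD, 3 libraries each). The median difference on the log2(FPKM + 1) scale was -2.90 for the lowered features and 3.23 for this reverse set, beside -0.13 for all tested features.

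All 263 lowered features belong to the largest component, the first number in the feature name (Cluster-2961). All 3109 features of the class are in it too, against 81.9% of all features. Within the component the second number runs from 0 to 299530. The sources used here do not say what it stands for. The lowered features had a median number of 148053 and an interquartile range of 142451 to 152864, close to the other features of the class (147919, 142030 to 154478).

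Lowered features often had close numbers. Another lowered feature lay within 3 numbers for 45 of the 263 (17.1%), and a lowered feature lay within 3 numbers for 134 of the other 2846 features of the class (4.71%). For any feature of the class within 3 numbers, the shares were much closer, at 49.4% and 44.9%. The 45 formed 16 pairs, 3 runs of 3 and 1 run of 4. Neighbours were lower by similar amounts: in 25 neighbouring pairs up to 3 numbers apart, the log2 ratios differed by a median of 0.33, against 0.83 over all 34453 pairs of lowered features. Neighbours may be pieces or copies of 1 gene and may share reads, so they are not independent, and no test was made.

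The runs show this feature by feature. In the first run, 3 features had control means of 531, 341 and 181 FPKM and cold means of 17.8, 9.13 and 7.70 FPKM, which is 29.9-fold, 37.4-fold and 23.6-fold lower. In the second, with 3 directly consecutive numbers, control means were 479, 196 and 386 FPKM, cold means 15.0, 5.96 and 23.8 FPKM, and the features were 31.9-fold, 32.9-fold and 16.2-fold lower. In the third, also consecutive, the features were 9.25-fold, 15.7-fold and 15.4-fold lower, from 157, 272 and 233 FPKM. In these 3 runs every feature was far lower in cold, with no overlap between the groups, and in the second run the third feature differed less than the others.

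The run of 4 was less even. Its features were 5.08-fold, 10.1-fold, 18.8-fold and 8.46-fold lower, from 607, 387, 262 and 409 FPKM in control. The third of these had 9.32, 2.24 and 30.2 FPKM in cold 1 to 3, so the size of its difference is poorly fixed.

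**Figure D3:**
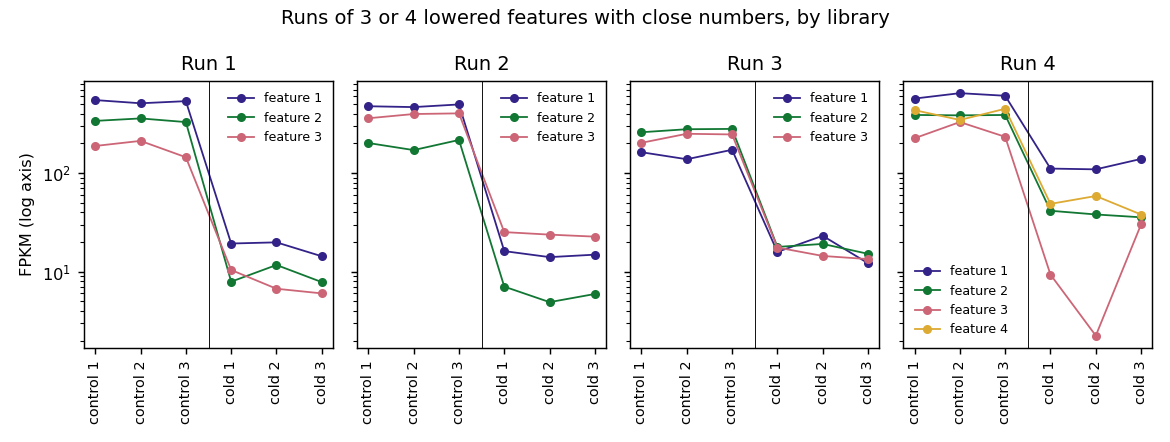
FPKM (log axis) in the 6 libraries for the features of the 4 runs with 3 or 4 lowered features whose numbers lie at most 3 apart, 1 line a feature. All lines are lower in cold than in control, some cross because features of a run differ in the size of the difference, and the third feature of run 4 spreads from 2.24 to 30.2 FPKM in cold.

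Features numbered directly before or after a lowered feature were often lower in cold as well. Of 368 such tested features that are not lowered features themselves, 156 (42.4%) were lower and 60 (16.3%) higher by limma at an adjusted p under 0.05 over all tested features, and 152 passed in neither direction. Next to the other features of the class, 1206 of 4011 (30.1%) were lower and 851 (21.2%) higher. Over all tested features 19.8% were lower and 15.8% higher. The median difference on the log2(FPKM + 1) scale was -0.48 next to lowered features and -0.11 next to the others. A difference of -2 or beyond was found in 61 (16.6%) and in 4.69%.

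By level, the share of lower features next to a lowered feature was similar throughout, and the share next to other features of the class was larger at higher levels. At a mean of 1 to 10 FPKM over the 6 libraries, 41.3% of 184 features next to a lowered feature were lower, against 22.0% of 1688 next to other features of the class. At 10 to 100 FPKM the shares were 44.1% of 136 and 34.6% of 1667. At 100 FPKM or more they were 41.7% of 48 and 39.5% of 656. Lowered features are left out of both counts, which removed 16 of 384 neighbours (4.17%) of lowered features and 41 of 4052 (1.01%) of the others, all of them abundant in control and much lower in cold. The shares at high level are therefore partly set by the rule. The difference between these shares was not tested, and neighbours share libraries and possibly reads with the features that chose them.

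**Figure D4:**
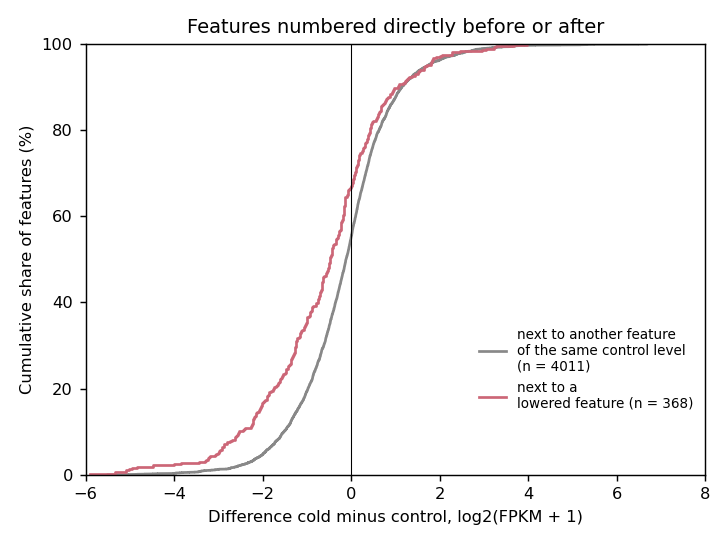
Cumulative share (%) of tested features by their difference between cold and control on the log2(FPKM + 1) scale, for 368 features numbered directly next to a lowered feature (red) and 4011 next to another feature of the same control level class (grey). The red curve lies to the left of the grey one below 0, with medians of -0.48 and -0.11, and the curves meet among the features higher in cold.

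Among abundant neighbours both directions occurred. Of 59 non-lowered neighbours with a mean of 100 FPKM or more in either group, limma called 23 lower and 24 higher, and 12 passed in neither direction. With the mean over the 6 libraries at 100 FPKM or more, 20 of 48 were lower and 16 (33.3%) higher, beside 39.5% and 38.3% next to other features of the class. The rule takes strongly lowered neighbours out of these counts and leaves strongly raised ones in, so the balance of directions is partly set by it. Abundant neighbours that met the ratio below 1000 FPKM in control are already counted as lowered features, so those left that met it lie above that level. Decreases just short of the ratio remain below that level, such as 1 from 461 to 115 FPKM. Among those above it, 1 had 876, 1123 and 1047 FPKM in control and 34.2, 45.8 and 8.48 FPKM in cold. Another had 1278, 1356 and 1379 FPKM and then 35.1, 32.5 and 50.2 FPKM. Each of these stands beside a lowered feature and moved the same way, with all cold libraries below all control libraries.

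In other places a lowered feature stood directly beside a feature that was strongly higher in cold. A neighbour called higher by limma, by any amount, was present for 58 of the 263 lowered features (22.1%). For 8 of them the neighbours' gain in FPKM was at least as large as the lowered feature's loss. No matching counts are given for the other features of the class, so nothing is read from the 58 and the 8. These 8, together with 1 more lowered feature among their neighbours, form 6 windows of consecutive numbers. They were picked once their values were known, a choice that favours windows with a higher sum in cold. Neighbours higher in cold were no more frequent next to lowered features (16.3%) than next to the other features of the class (21.2%). A difference of 2 or more on the log2(FPKM + 1) scale was found in 11 of 368 (2.99%) and in 3.71%.

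The third window alternated between the directions over 4 consecutive numbers. The first feature had 44.5, 43.1 and 47.3 FPKM in control and 164, 166 and 167 FPKM in cold. The second, a lowered feature, had 104, 105 and 100.2 FPKM in control and 17.9, 16.5 and 18.5 FPKM in cold. The third went from 121, 112 and 109 FPKM to 936, 946 and 969 FPKM, which is 8.33-fold higher. The fourth, again a lowered feature, went from 385, 437 and 353 FPKM to 56.0, 72.7 and 75.4 FPKM. No control and cold libraries overlapped in any of the 4. On the log2(FPKM + 1) scale the differences were 1.86 ± 0.058, -2.49 ± 0.075, 3.05 ± 0.046 and -2.51 ± 0.13 (SE, limma).

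The second window had the same alternation. Its lowered features went from 202 ± 4.48 to 27.6 ± 0.735 FPKM and from 221 ± 5.67 to 43.5 ± 3.72 FPKM (SD, n = 3 each). The feature numbered between them went from 163 ± 15.7 to 525 ± 46.2 FPKM, and the one before them from 51.1 ± 15.2 to 148 ± 11.8 FPKM. The sum over the window's 5 features was 638 ± 29.7 FPKM in control and 744 ± 45.4 FPKM in cold, a smaller difference than that of either lowered feature.

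The other 4 windows each paired 1 or 2 lowered features with 1 that was higher. In the sixth, a lowered feature had 242, 245 and 237 FPKM in control and 17.7, 20.8 and 9.91 FPKM in cold, and the next number went from 133, 110.1 and 118 FPKM to 1115, 1161 and 1115 FPKM. In the fifth, 2 consecutive lowered features went from 319 ± 13.6 to 30.3 ± 8.44 FPKM and from 243 ± 34.4 to 6.43 ± 0.893 FPKM, beside a feature that went from 124 ± 42.5 to 937 ± 132 FPKM (SD, n = 3 each). In the fourth, a lowered feature went from 458 ± 35.9 to 91.4 ± 14.7 FPKM beside one that went from 902 ± 27.7 to 2224 ± 17.4 FPKM. The first was the most nearly balanced, with a lowered feature at 108 ± 5.30 and 23.3 ± 0.747 FPKM, its neighbour at 38.7 ± 3.84 and 141 ± 3.89 FPKM, and a window sum of 147 ± 8.53 FPKM in control and 164 ± 4.61 FPKM in cold. Window sums stood further apart in windows 3 to 6. In control and cold they were 715 and 1245 FPKM in the third window and 1723 and 2696 FPKM in the fourth. They were 686 and 974 FPKM in the fifth and 362 and 1147 FPKM in the sixth. No sequence was at hand to tell whether the features of a window come from 1 gene, and read sharing between them was not tested.

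**Figure D5:**
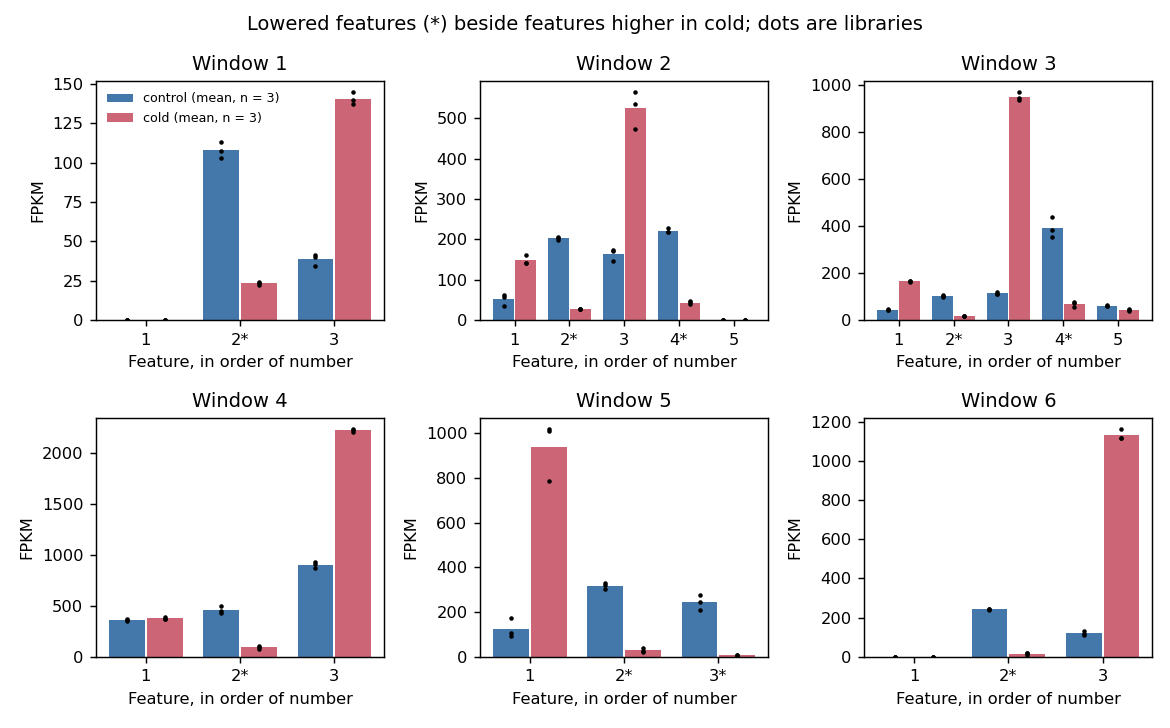
FPKM of consecutively numbered features in the 6 windows where neighbours gained at least as much FPKM as a lowered feature lost (linear axes from 0, bars are means of 3 libraries, blue for control and red for cold, dots are libraries, asterisks mark lowered features). In windows 2 and 3 the lowered features alternate with features that are higher in cold, such as the one at 114 FPKM in control and 950.5 FPKM in cold in window 3.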

How the data were processed

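Short-read RNA libraries of leaves were measured in 6 samples, 3 control and 3 cold, grouped by their titles. The authors deposited 1 table of FPKM values rounded to 2 decimals. Bowtie2 2.0.6 and TopHat2 2.0.12 are named in the submitters' processing notes without a role. The reference and the counting program remain not given in the sources used here.

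Values were used as deposited. Group means gave the lowered features. For calls, features with a mean of at least 1 FPKM were fitted as log2(FPKM + 1) with limma 3.58.1 in R 4.3.3 (mean-variance trend, two-sided, Benjamini-Hochberg adjustment, threshold 0.05, no block). Differences on this scale understate changes of low features. Absolute depth is unknown, so no counting interval was computed. Printed by name were the lowered features with the highest control mean and the lowest ratio. Other features were described by order or count, and the windows, uneven features and left-out readings were chosen after values were seen. The lowered features and all lists were chosen with earlier results of these data known. Alternatives covered the number added to the means, filters, 3 scalings, medians, ratio limits, a replicate block and leaving out each library.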

Additional observations from a re-analysis of the deposited data

How the results depend on the processing

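The number of lowered features stayed within 1.5 times of 263 under each alternative tried. It was 211 with the median of ratios, of which 208 are among the 263, and 295 with quantile normalization, of which 262 are. Ratio limits of 0.2 and 0.3 gave 196 and 340, and leaving out 1 library gave 260 to 270. The reverse set stayed larger in each setting that was applied to both, with 458 to 572 features (492 to 505 without 1 library). The median of ratios moved the median log2 difference of all tested features from -0.13 to 0.0085, and that of the lowered features from -2.90 to -2.73. The count of features lower in cold, 30500, was 15843 with a filter at a mean of 5 FPKM, where fewer features are tested, and 22389 to 25511 without 1 library. The share of lower features next to a lowered feature, 42.4%, was 30.9% without a filter and 47.8% at a mean of 5 FPKM, beside 22.1% and 36.0% next to other features of the class. It was 36.3% for numbers up to 5 apart, beside 29.7%, and 35.5% to 37.4% without 1 library, where fewer libraries are fitted, beside 25.7% to 26.8%. Both features printed by name stayed lower in each fit. The one with the lowest ratio, listed at 0 in 2 cold libraries, moved from -6.89 to -9.21 on the log2 scale with a pseudocount of 0.1.

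With a replicate block in the fit, 23058 features were lower and the share next to a lowered feature was 37.5%, beside 25.9% next to other features of the class. For libraries with the same number, deviations from the group means had correlations of -0.0022, -0.0061 and -0.012, and no library correlated best with its own number, so no pairing by number was used.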
